A study of Mus musculus with 2 samples.

Results

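The 514 cells described here came from a droplet library of mouse bone marrow labelled ST-HSC, short-term haematopoietic stem cells, and were picked by the RNA of 3 genes. Kept cells had 1000 or more genes detected and under 10% of their unique molecular identifiers (UMIs, 1 per captured molecule) from mitochondrial genes. A member had 3 or more UMIs of Hells, Uhrf1 and Ung per 10000 UMIs of the cell, and under 5 of the 7 mitotic genes Mki67, Top2a, Cenpf, Kif11, Nusap1, Tpx2 and Prc1. It also had under 3 of Dntt, under 2 of the granule genes Mpo, Elane and Ctsg, and under 10 of the erythroid gene Car1. By this rule 514 of 6648 kept cells, 7.73% (exact Clopper-Pearson 95% interval 7.1 to 8.4%), were members, and the 2 libraries of the series held 9370 kept cells. The marrow donors of both libraries were C57Bl6 mice of wild-type genotype, with an age of 8 weeks in the title of the series, and the labels name no treatment. Per the series text the ST-HSC gate was LSK (lineage negative, Sca-1 and Kit positive) CD34- CD150+ CD48+, and the gate of the other library, LT-HSC for long-term stem cells, was LSK CD34- CD150+ CD48- Flk2-. There was 1 library per gate. The number of mice behind each is not given in the sources used here.

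A cell that enters the cycle first makes the proteins that copy DNA. The E2F transcription factors, released from the retinoblastoma protein by cyclin D and cyclin E kinases, switch on genes for origin licensing, polymerases, nucleotide synthesis and the copying of chromatin. Histone messages then accumulate while DNA is replicated, and mitotic genes follow under the DREAM and MYBL2 complexes. Haematopoietic stem cells are mostly quiescent, and dividing multipotent progenitors supply most of the blood. Hells is a chromatin remodeller that works with Cdca7 in DNA methylation, Uhrf1 brings the methyltransferase Dnmt1 to newly copied DNA, and Ung removes uracil from DNA.

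The comparison sets are these. The other kept cells of the ST-HSC library numbered 6134. Within the same limits on Dntt, granule genes and Car1, 2923 low-cycle cells lay below both the Hells, Uhrf1 and Ung threshold and the mitotic threshold. A further 1196 cells reached the mitotic threshold whatever their Hells, Uhrf1 and Ung level, and are called mitotic-gene-high. In the LT-HSC library 159 of 2722 kept cells passed the same rule, 5.84% (4.99 to 6.79%), and 1419 were low-cycle.

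The members were chosen by measured RNA, so every level of these cells is a description. There was 1 library per gate, so no test was made and no p-value is given. Summed UMIs were scaled by the set's total to CPM, counts per 1e6 UMIs, and ratios carry exact Clopper-Pearson 95% intervals for counting error only. A gene is counted as higher at a ratio of 1.5 or more and as lower at 1/1.5 or less.

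Promoter sequences of Hells, Cdca7 and 3 origin licensing genes are shown first. They were chosen because their windows hold an E2F-type octamer, which most replication-list promoters lack. The windows run from 250 bases before to 50 bases after a transcription start in RefSeq annotation of GRCm38.p6, and the letters searched on both strands were the E2F-type octamers TTTCCCGC, TTTGGCGC, TTTCGCGC and TTTGCCGC. Capitals mark the octamers. The Hells window is chr19:38930740-38931039 on the plus strand, with 1 match 62 bases before the start. That of Mcm5, a subunit of the replicative helicase, is chr8:75109259-75109558 on the plus strand, with 2 overlapping matches on opposite strands. That of Cdca7 is chr2:72475969-72476268 on the plus strand, with 1 match on the minus strand 71 bases before the start. That of Cdc6, which loads the helicase, is chr11:98907901-98908200 on the plus strand, with 1 match on the minus strand 138 bases before the start. That of Mcm6, another helicase subunit, is chr1:128359656-128359955 on the minus strand, with 3 matches, 2 of which overlap.
Hells: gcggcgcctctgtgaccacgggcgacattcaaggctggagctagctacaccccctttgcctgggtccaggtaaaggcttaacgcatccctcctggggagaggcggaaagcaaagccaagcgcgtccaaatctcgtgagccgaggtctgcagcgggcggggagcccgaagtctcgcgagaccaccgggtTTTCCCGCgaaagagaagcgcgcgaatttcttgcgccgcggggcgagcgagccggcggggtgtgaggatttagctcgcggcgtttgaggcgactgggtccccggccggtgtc
Mcm5: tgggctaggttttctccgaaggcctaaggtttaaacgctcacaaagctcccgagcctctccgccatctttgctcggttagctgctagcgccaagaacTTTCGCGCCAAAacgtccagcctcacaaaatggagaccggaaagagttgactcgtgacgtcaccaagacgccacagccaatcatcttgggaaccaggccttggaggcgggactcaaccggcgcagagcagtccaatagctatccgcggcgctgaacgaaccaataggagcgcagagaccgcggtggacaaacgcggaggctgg
Cdca7: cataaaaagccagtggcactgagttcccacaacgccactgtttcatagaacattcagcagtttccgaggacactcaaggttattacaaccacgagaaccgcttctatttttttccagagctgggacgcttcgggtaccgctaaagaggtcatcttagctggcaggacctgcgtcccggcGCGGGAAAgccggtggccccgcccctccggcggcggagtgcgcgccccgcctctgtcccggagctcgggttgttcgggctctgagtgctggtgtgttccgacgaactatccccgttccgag
Cdc6: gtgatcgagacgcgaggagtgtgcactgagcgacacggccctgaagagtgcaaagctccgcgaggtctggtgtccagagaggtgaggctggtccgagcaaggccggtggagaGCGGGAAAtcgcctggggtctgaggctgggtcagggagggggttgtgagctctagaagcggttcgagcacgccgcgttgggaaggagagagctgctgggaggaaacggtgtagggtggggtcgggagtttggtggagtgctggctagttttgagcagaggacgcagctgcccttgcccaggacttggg
Mcm6: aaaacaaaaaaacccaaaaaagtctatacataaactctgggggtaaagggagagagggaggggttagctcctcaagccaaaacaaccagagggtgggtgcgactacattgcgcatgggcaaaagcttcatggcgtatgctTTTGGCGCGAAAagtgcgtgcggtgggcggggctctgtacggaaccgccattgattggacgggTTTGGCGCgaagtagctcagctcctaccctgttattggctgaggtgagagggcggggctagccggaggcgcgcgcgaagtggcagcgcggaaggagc

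For contrast, the window of Ccnb2, the mitotic cyclin B2, is printed with the hexamer TTTGAA in capitals. This hexamer is the core of the CHR element of mitotic genes, and it occurs 2 times on the plus strand of that window at chr9:70421505-70421804, read on the minus strand of the chromosome.
Ccnb2: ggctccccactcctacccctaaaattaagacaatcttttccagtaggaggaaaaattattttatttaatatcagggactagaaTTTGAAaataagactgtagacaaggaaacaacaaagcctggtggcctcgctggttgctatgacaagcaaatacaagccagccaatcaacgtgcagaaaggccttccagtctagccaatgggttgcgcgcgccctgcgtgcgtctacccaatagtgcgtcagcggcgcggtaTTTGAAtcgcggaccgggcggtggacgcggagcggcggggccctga

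E2F-type octamers stood in 26 of 101 replication-list promoters found in the table, or 25.7%. The lists differed, with 9 of 14 promoters for origin licensing (64.3%), 7 of 21 for polymerases and clamp (33.3%), 5 of 21 for fork protection and repair (23.8%), 2 of 9 for helicase activation (22.2%), 3 of 18 for chromatin replication (16.7%) and 1 of 21 for nucleotide supply (4.76%). The share was 4.56% over the 8468 promoters of genes measured in the low-cycle comparison and 2.67% over all 20850 promoters. Of genes higher in the members than in low-cycle cells, 82 of 554 promoters held an octamer (14.8%), against 11 of 602 for the lower genes (1.83%). The CHR hexamer stood in 39 of 56 mitosis promoters (69.6%), in 14.9% of the replication-list promoters and in 11.7% of those of measured genes. Its share was 17.0% over all 20850 promoters and 42.9% over the 49 histone promoters. The windows of Ung, Uhrf1, Lig1, E2f1, Tk1, Rrm2, Mcm10 and Brca1, all higher in the members than in low-cycle cells, held none of the 4 octamers. A match is a run of letters, not a measured binding site.

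The rule was read on few molecules per cell. Members held a median of 7 UMIs of Hells, Uhrf1 and Ung together, from 1 to 26, and 17.5 per 10000 at the highest. Of the members, 7 had a single UMI of these genes and 10 had 2 UMIs. Their summed mitotic genes had a median of 1.68 per 10000, and 98 members had none. Of 1493 cells with enough Hells, Uhrf1 and Ung, the mitotic limit removed 743, the Dntt limit 124, the granule gene limit 97 and the Car1 limit 15. The plot of the rule's own genes shows a continuous cloud across both thresholds.

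**Figure D1:**
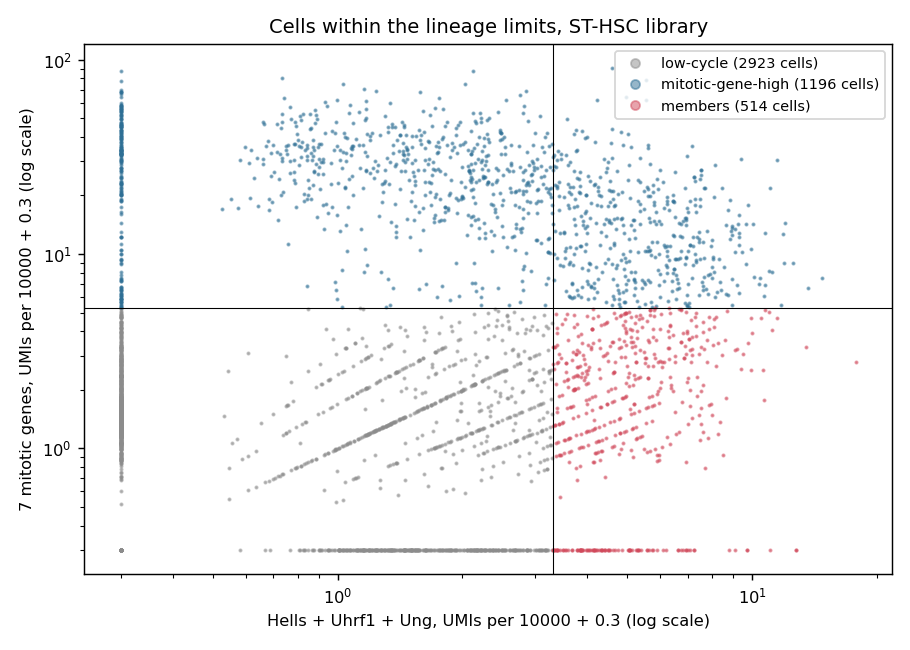
Each point is 1 of the 4633 ST-HSC cells within the lineage limits, by UMIs per 10000 of Hells, Uhrf1 and Ung (x) and of the 7 mitotic genes (y), each plus 0.3 on a log scale, with the limits of 3 and 5 as lines. The 514 members fill the lower right corner and no gap separates them from the 2923 low-cycle or the 1196 mitotic-gene-high cells.

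Cells just inside and just outside the thresholds were compared for a few genes. The 101 members at 3 to 3.5 per 10000 had Lig1, the ligase that joins replicated fragments, at 167 CPM, and the 105 cells at 2.5 to 3 that fell just outside had 114 CPM. Mcm5 was at 118 and 111 CPM in these sets. Across the mitotic limit, Mcm5 was at 168 CPM in the 59 members at 4 to 5 and 176 CPM in the 43 cells at 5 to 6. The linker histone gene Hist1h1b was at 39.5 CPM inside that limit and 179 CPM outside it.

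Depth differed between the sets. Members had a median of 14162 UMIs, low-cycle cells 9685 and mitotic-gene-high cells 19108, while mitochondrial shares were 3.42, 3.54 and 3.35%. When the rule was read again on cells thinned to 5000 UMIs, 399 of 6367 cells passed, and 250 of the 499 members deep enough to be thinned were among them. The 2 libraries shared 8 cell barcodes, of which 7 were kept and 1 was a member.

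The 5 marker genes of the label, Hells, Uhrf1, Ung, Lig1 and Mcm5, were all higher in members than in low-cycle cells. The first 3 chose the cells. Hells (chr19:38930915-38971051, plus strand) was at 273 CPM in members, 93.1 in the other kept cells, 37.7 in low-cycle and 134 in mitotic-gene-high cells. Uhrf1 (chr17:56303321-56323486, plus strand) was at 143, 67.8, 16.9 and 107 CPM in the same order. Ung (chr5:114130386-114139323, plus strand) was at 73.4, 17.4, 9.05 and 19.1 CPM, so it alone of these 3 stood low in the mitotic-gene-high cells. Lig1 (chr7:13277283-13311433, plus strand) was at 198, 117, 43.4 and 178 CPM. Mcm5 (chr8:75109569-75128439, plus strand) was at 139, 89.0, 37.7 and 104 CPM. The coordinates are those of whole genes in GENCODE M21 on mm10.

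Against all other kept cells of the library, 276 of 10515 measured genes were higher in the members (2.62%) and 442 were lower (4.2%). The highest by the interval bound nearest 1 were Ung at a ratio of 4.21, Hells at 2.93, E2f1 at 2.18, Uhrf1 at 2.10 and Cdca7 at 2.01. E2f1, an activator of the G1/S genes, was at 62.1 CPM in members and 28.5 CPM in the rest. Chek1, the replication checkpoint kinase, had a ratio of 1.99, and the helicase subunit Mcm3 1.87. The same top list held genes outside replication, among them Jazf1 at 2.20, Rapgef5 at 2.12, Rapgef4 at 1.98, Ranbp17 at 1.98 and the neurofilament gene Nefh at 2.0. Among the lowest were the limit genes Elane, Ctsg, Car1 and Cenpf, the erythroid genes Rhag and Ermap, the immunoglobulin genes Iglc3 and Igkc and the histone gene Hist1h2ab.

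This first comparison mixes many kinds of cells, including dividing ones. Of the 124 replication genes outside the rule's 3, 122 were measured in it. Of these 32 were higher and 6 were lower, beside 2.62 and 4.2% of all measured genes. The median log2 ratio of the 122 was 0.33 beside -0.01 over all genes. The reference held the mitotic-gene-high cells, whose summed level of these genes was 12272 CPM beside 11992 CPM in the members. The count of 32 depended on the setting, with 54 from means of cells, 51 after thinning to 5000 UMIs and 13 with the mitotic limit at 2.

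Against low-cycle cells within the same lineage limits, 677 of 10585 genes were higher (6.4%) and 777 were lower (7.34%). Scaling by TMM factors changed the split to 881 higher and 579 lower, 60.3% higher in place of 46.6%, and the median of ratios gave 60.5%. Of 120 measured replication genes 108 were higher, none was lower, and the median log2 ratio was 1.5 beside -0.07 over all genes. Their summed level was 11992 CPM in members and 5098 CPM in low-cycle cells. Per cell, at 5000 UMIs, members had a median of 118 UMIs of these genes per 10000 (quartiles 94.0 and 142.0, range 24.0 to 216) and low-cycle cells 40.0 (quartiles 30 and 54.0, range 4.0 to 198). The distributions overlapped, and 328 of 499 thinned members (65.7%) lay above the 95th percentile of the low-cycle cells.

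Origin licensing genes, which mark where replication may begin, were higher in members for 13 of 16, beside 6.4% of all measured genes. Gmnn, the inhibitor that stops licensing once copying starts, was at 111 CPM against 25.9 CPM, a ratio of 4.30 (3.90 to 4.73). Cdt1, the loader that Gmnn binds, had a ratio of 3.93 and Cdc6 one of 3.71. The helicase genes Mcm2 to Mcm7 had ratios from 2.65 for Mcm6 to 3.70 for Mcm5. Orc3, Orc4 and Orc5, subunits of the origin recognition complex, were between 0.913 and 1.09.

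Genes that start the helicase were higher for 11 of 12 measured, beside 6.4% of all measured genes. Mcm10 was at 32.8 CPM against 4.31 CPM, a ratio of 7.60 (6.16 to 9.40), and Cdc45, which joins the helicase when an origin fires, had a ratio of 5.04. Dbf4, the activating partner of the kinase Cdc7, was the exception at 1.36, while Cdc7 itself had a ratio of 4.19. Polymerase and clamp genes were higher for 24 of 25. Pola1, the catalytic subunit of the priming polymerase, was at 377 CPM against 125 CPM, a ratio of 3.02 (2.88 to 3.16). Pcna, the sliding clamp, was at 242 CPM against 94.9 CPM, and Dscc1, of an alternative clamp loader, had a ratio of 5.80. Pole4 was the measured gene of that list under 1.5, at 1.33.

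Nucleotide supply divided into strong and weak members. Tk1, the thymidine kinase, was at 53.1 CPM against 7.65 CPM, a ratio of 6.94 (5.92 to 8.15). Rrm2, the cycle-limited subunit of ribonucleotide reductase, was at 30.9 CPM against 4.49 CPM, a ratio of 6.89 (5.59 to 8.51). Its stress-related counterpart Rrm2b was at 16.6 against 20.6 CPM, a ratio of 0.805. Tyms, the thymidylate synthase, had a ratio of 4.88. Purine synthesis genes had lower ratios, from 1.51 for Atic to 1.99 for Ppat with Gart at 1.63 and Paics at 1.86. In all 20 of 24 were higher, beside 6.4% of all measured genes, with a median log2 ratio of 0.90.

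Chromatin replication genes were higher for 19 of 20, beside 6.4% of all measured genes. The 19 include Hells and Uhrf1, whose place was set by the rule. Chaf1a, of the factor that places histones behind the fork, had a ratio of 3.82 and the maintenance methyltransferase Dnmt1 one of 2.67. Cdca7 was at 180 CPM against 62.3 CPM, a ratio of 2.89 (2.70 to 3.10). Slbp, which binds the stem-loop that ends histone messages, was at 151 CPM against 68.7 CPM. Fork protection and repair genes were higher for 24 of 26 measured, including Ung, whose place was also set by the rule. Pclaf, a partner of Pcna, ranked first in this comparison, with a ratio of 9.39 (8.22 to 10.8), at 91.5 CPM against 9.74 CPM. Mybl2, of the complex that turns on mitotic genes, had a ratio of 9.05. With the mitotic limit at 2, the log2 ratio of Pclaf went from 3.23 to 1.77, below Ung at 3.17, and that of Mybl2 from 3.18 to 2.45. Clspn, which activates Chek1, had a ratio of 7.11 and Brca1 one of 6.24.

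**Figure D2:**
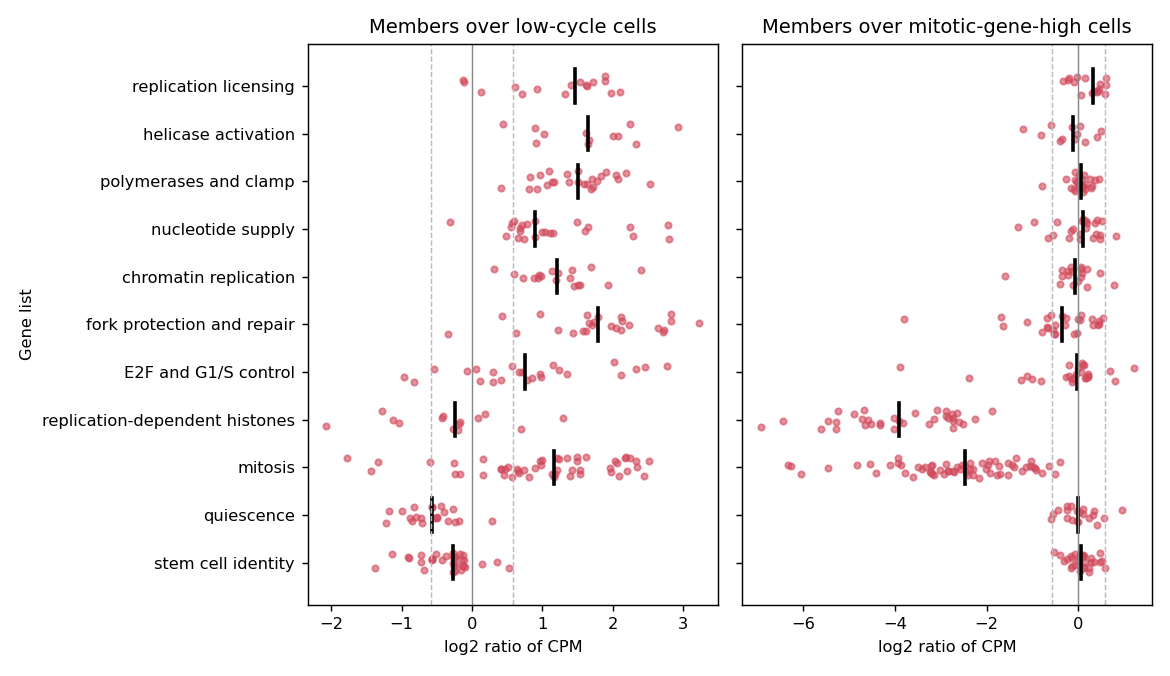
Each point is a measured gene of a list, placed by the log2 ratio of CPM in the 514 members over the 2923 low-cycle cells (left) or the 1196 mitotic-gene-high cells (right), without Hells, Uhrf1 and Ung; thick bars are list medians and dashed lines mark a ratio of 1.5 either way. The 6 replication lists lie to the right of 0 on the left panel and around 0 on the right panel, while histones lie near 0 on the left and at a median of -3.91 on the right.

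Regulators of entry into S phase did not move as a block. Of the 26 genes listed, 24 were measured against low-cycle cells, with 14 higher and 2 lower. Over all measured genes 6.4% were higher and 7.34% lower. E2f1 was at 62.1 CPM against 15.3 CPM, a ratio of 4.05 (3.57 to 4.60), and E2f7 and E2f8, E2F repressors, had ratios of 6.83 and 5.03. Ccne2, a cyclin E that drives entry into S phase, was at 23.3 CPM against 4.25 CPM, a ratio of 5.48 (4.37 to 6.89), and its log2 ratio went from 2.46 to 1.66 with the mitotic limit at 2. E2f5 was lower at 0.513. The D cyclins differed among themselves. Ccnd3 was lower in members, at 323 CPM against 573 CPM, a ratio of 0.564 (0.541 to 0.588). Ccnd2 was at 168 against 176 CPM and Ccnd1 at 65.3 against 52.9 CPM, both between the limits. Cdk6, their kinase partner, was at 847 CPM against 633 CPM, a ratio of 1.34 (1.30 to 1.37).

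Kinase inhibitors had few molecules. Of the 7 listed, 5 were measured, and none passed 1.5 either way against low-cycle cells. Cdkn1b (p27) was at 41.8 against 55.2 CPM, Cdkn1a (p21) at 17.1 against 22.6 CPM and Cdkn1c (p57) at 10.9 against 14.7 CPM. All 3 intervals lay below 1, with upper bounds of 0.853, 0.911 and 0.935. The inhibitor gene Cdkn2c ran the other way, at a log2 ratio of 0.48 over low-cycle cells.

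Histone messages did not follow the replication genes. The 54 replication-dependent histone genes of the Hist1 and Hist2 clusters summed to 264 CPM in members, 323 CPM in low-cycle cells and 4517 CPM in mitotic-gene-high cells. Against low-cycle cells 14 of the 54 were measured, 2 higher and 4 lower, beside 6.4 and 7.34% of all measured genes. Against the mitotic-gene-high cells 35 were measured and 35 were lower, but a gene could enter that count through its level in those cells. Hist1h1b was at 15.9 CPM in members, 9.87 in low-cycle and 623 in mitotic-gene-high cells. Hist1h2ap was at 62.5, 55.2 and 1586 CPM. Hist1h2bc was lower in members than in both, at 11.0 CPM against 46.2 and 52.8 CPM. Per cell at 5000 UMIs, 8 of 499 members (1.60%) lay above the 95th percentile of low-cycle cells for the summed histones, against 69.0% of mitotic-gene-high cells. Many of these genes are near-identical copies, so the split of reads among them is uncertain and the sum is the safer value. Most replication-dependent histone messages lack a poly(A) tail, which the kit captures, and the part of this in the low sums was not tested.

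Cells that met the Hells, Uhrf1 and Ung threshold but exceeded the mitotic limit did hold histone RNA. The 339 such cells at 5 to under 20 mitotic UMIs per 10000 had a histone sum of 2490 CPM, and the 100 cells at 20 or more had 6873 CPM. Their replication sums were 16219 and 16595 CPM, above that of the members. The members carried RNA of the replication enzymes that the S phase label names but little of the histone messages of that phase. The mitotic limit took out these histone-rich cells, so the low histone sum of the members was partly set by the choice. The members are called here by their rule. What share of them was copying DNA was not measured.

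Mitotic genes outside the rule stood between the 2 flanking groups. Against low-cycle cells 36 of 51 measured were higher and 4 lower, beside 6.4 and 7.34% of all measured genes. The list's median log2 ratio was 1.16. The mitotic-gene-high comparison had 259 of 10449 genes higher in the members (2.48%) and 468 lower (4.48%). Of 65 mitosis genes measured there, 63 were among the lower ones. The reference was chosen for mitotic RNA, and a gene could enter that count through its level in those cells. The kinase gene Cdk1 was at 40.5 CPM in members, 9.96 in low-cycle and 154 in mitotic-gene-high cells. Ccna2, cyclin A2, was at 4.92, 2.46 and 72.9 CPM, and with the mitotic limit at 2 its log2 ratio over low-cycle cells went from 1.0 to 0.35. Ccnb2, whose promoter is printed above, was at 2.72, 9.32 and 119 CPM, so it was lowest in the members. The rule limits 7 mitotic genes, so low values of genes that follow them were partly set by the choice.

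Replication genes as a group had a median near that of all genes against mitotic-gene-high cells, but lists and single genes differed. Of 122 measured, 4 were higher and 17 lower, beside 2.48 and 4.48% of all measured genes. Their median log2 ratio was 0.02 beside -0.02 over all genes. Origin licensing genes had a median of 0.32, with 2 of 16 higher and none lower. Helicase activation genes had a median of -0.11, with none of 12 higher and 3 lower. The 4 higher genes were Mcm2 at a ratio of 1.53, Mcm6 at 1.51, Cdca7 at 1.72 and Dctd, the deoxycytidylate deaminase, at 1.77. Among the lower were Rrm2 at 0.399, Tk1 at 0.511, Pclaf at 0.321, Asf1b, a histone chaperone, at 0.331, and Fancd2, of the crosslink repair pathway, at 0.312. Beside the rule's own Ung at 3.83 and Hells at 2.03, the highest-ranked gene was Ccnd1 at 65.3 CPM against 28.2 CPM, a ratio of 2.31. Ccnd2 had a ratio of 1.75, the glycolytic enzyme gene Aldoa 1.86 and E2f1 1.60.

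**Figure D3:**
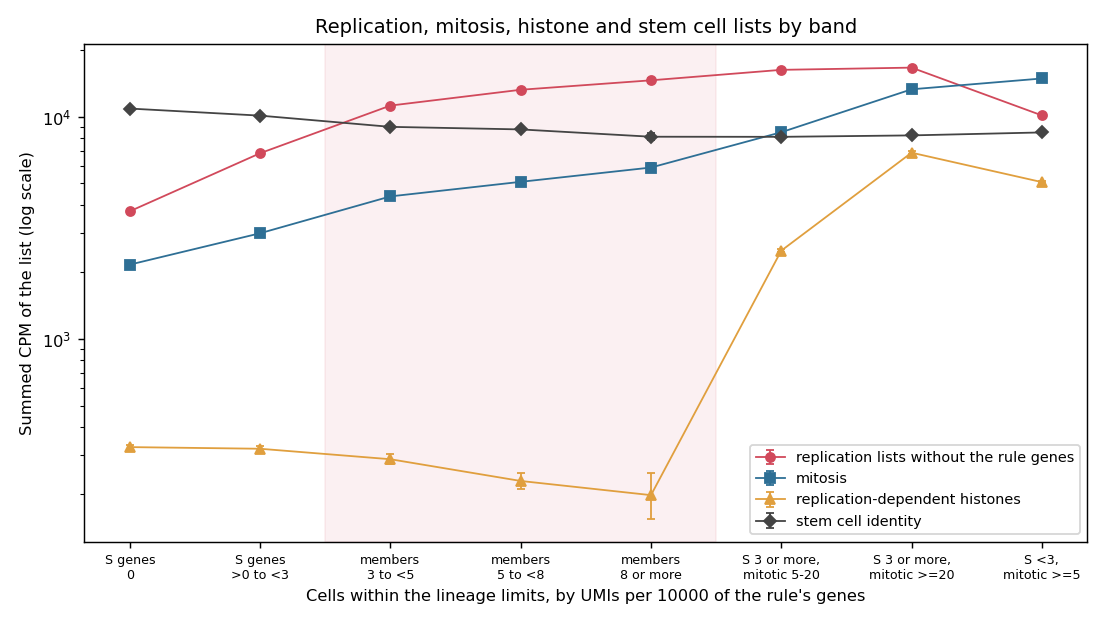
Summed CPM (log scale) of 4 gene lists in 8 bands of cells within the lineage limits, ordered by Hells, Uhrf1 and Ung and then by mitotic genes, with 95% Poisson intervals and members shaded. Replication genes climb from 3746 CPM in cells with none of the 3 genes to 14551 CPM in the highest member band, while histones stay at 198 to 325 CPM until the mitotic limit is passed.

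Within the members the replication genes followed the Hells, Uhrf1 and Ung level. The 318 members at 3 to under 5 per 10000 had 11199 CPM of the 124 genes, the 166 at 5 to under 8 had 13192 CPM and the 30 at 8 or more had 14551 CPM. The low-cycle cells with none of the 3 genes had 3746 CPM, and those with some had 6836 CPM. Ccnd3 ran the other way, at 618 and 514 CPM in the 2 low-cycle bands and 338, 305 and 239 CPM in the member bands. Histones did not climb with the band, at 287, 229 and 198 CPM. The last band holds 30 cells. These bands were cut on the rule's own genes, and low-cycle cells were shallower than members. The part of depth in these differences was not tested.

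The mitotic genes of the rule, although under its limit, ordered the members as well. The 98 members with none had 9469 CPM of replication genes, the 190 with a level up to 2 had 10903 CPM and the 226 at 2 to under 5 had 13466 CPM. Tk1 was at 8.94, 36.9 and 76.7 CPM in these bands and Rrm2 at 6.95, 21.2 and 44.5 CPM. Ccne2 was at 9.93, 12.9 and 34.6 CPM, and E2f1 at 43.7, 52.9 and 73.9 CPM. Ung was at 85.4, 64.0 and 77.3 CPM and showed no such order. Ccnd1 was at 75.5, 70.3 and 58.8 CPM. Median depth climbed with the band too, at 10552.5, 14018 and 15811 UMIs, and its part in these differences was not tested.

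Of 32 genes of ribosome production, 6 were higher than in low-cycle cells, beside 6.4% of all measured genes, and 26 lay between the limits. The ratios of all 32 were above 1, with a median log2 ratio of 0.51. The summed level was 5703 CPM against 4061 CPM. Nop56, a core protein of methylation guide particles, was at 194 CPM against 113 CPM, a ratio of 1.73 (1.62 to 1.83). Nolc1, a nucleolar chaperone, had a ratio of 1.69. Myc, a driver of ribosome genes, was at 70.0 against 55.3 CPM, a ratio of 1.27, and Mycn at 11.8 against 19.4 CPM, a ratio of 0.606. Among chromatin modifiers, Ezh2, the Polycomb methyltransferase of dividing cells, was at 261 CPM against 112 CPM. Its counterpart Ezh1 was at 19.9 against 35.7 CPM, a ratio of 0.559 (0.469 to 0.661).

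Of 21 quiescence genes measured, 9 were lower in members than in low-cycle cells, 12 lay between the limits and none was higher. The list's median log2 ratio was -0.56, and over all measured genes 7.34% were lower. Klf2 and Klf4, Krüppel-like factors of resting cells, had ratios of 0.441 and 0.427, the antiproliferative gene Btg1 0.502 and the forkhead factor Foxo1 0.541. Btg1 was at 59.3 CPM in members, 118 in low-cycle and 64.9 in mitotic-gene-high cells. Against the mitotic-gene-high cells the list's median was -0.01. Immediate early genes, which overlap this list, were lower for 8 of 18, with Ier5 at 0.535 and Atf3 at 0.541. They also answer to tissue dissociation, whose part was not tested.

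Of 33 measured stem cell identity genes, 7 were lower against low-cycle cells, beside 7.34% of all measured genes, and 26 lay between the limits. The list's median log2 ratio was -0.26 and 3 of its ratios were above 1. Against mitotic-gene-high cells none passed 1.5 either way, with a median of 0.05. Mecom, a factor that stem cells need to persist, was at 1025 CPM in members, 1103 in low-cycle and 1034 in mitotic-gene-high cells. Hlf, a leucine zipper factor of the stem cell state, was at 499, 738 and 526 CPM. Procr, a surface receptor of stem cells, was at 30.2, 48.5 and 20.2 CPM. Mill2 had the lowest ratio over low-cycle cells, 0.386, followed by Mamdc2 at 0.455. Against all other kept cells, which include committed ones, 3 of 33 were higher, beside 2.62% of all measured genes. These 3 were led by Fgd5 at 1.60, whose ratio over low-cycle cells was 0.888.

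Shares of cells with a UMI were compared at a matched depth of 5000 UMIs, which left out 15 members, 165 low-cycle and 39 mitotic-gene-high cells. Mecom was seen in 91.4% of members (88.6 to 93.7%), 87.6% of low-cycle and 88.2% of mitotic-gene-high cells. Hlf was seen in 78.0, 82.2 and 78.4%. Flt3, a receptor of multipotent and lymphoid-primed progenitors, was seen in 59.7, 64.4 and 59.6%. Before thinning the members' shares were 95% for Mecom, 90.4% for Hlf and 79.8% for Flt3. In 56.3% of members Flt3 and at least 1 of Hlf and Mecom were seen together, and 2.2% had none of the 3. Among cells with 20 or more granule UMIs per 10000, Hlf was seen in 21.7%, Mecom in 33.0% and Flt3 in 22.6%. Free RNA and the cells' own expression cannot be told apart there, and part of any share may be background. Those cells were deeper, with a median of 28980 UMIs before thinning against 14317 in the members.

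**Figure D4:**
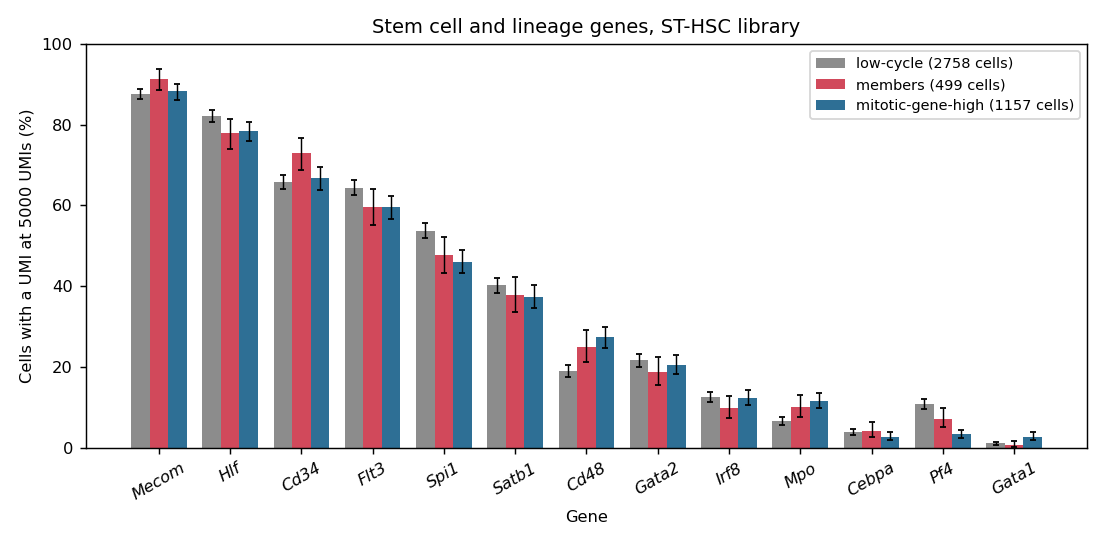
Bars give the percent of cells with a UMI of each gene after thinning to 5000 UMIs, in 2758 low-cycle, 499 member and 1157 mitotic-gene-high cells of the ST-HSC library, with exact 95% binomial intervals for counting error. Mecom, Hlf and Flt3 stand within 5 points of each other across the 3 groups, and Gata1 is under 3% in each.

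Lineage genes ranged from rare to common. Gata1, the erythroid and megakaryocyte factor, was seen in 0.6% of members, 1.1% of low-cycle and 2.8% of mitotic-gene-high cells. Pf4, a platelet granule gene, was seen in 7.2, 10.8 and 3.3%, and Cebpa, a granulocyte factor, in 4.2, 3.8 and 2.7%. The myeloid enzyme gene Mpo, which the rule limits, was seen in 10.0, 6.6 and 11.7%. Satb1, a lymphoid chromatin organiser, was seen in 37.9, 40.2 and 37.3%. Spi1, a myeloid and lymphoid factor, was seen in 47.7, 53.7 and 46.1%, and Gata2, a factor of stem and early progenitor cells, in 18.8, 21.6 and 20.5%. Of 5 sorting gate genes measured, none passed 1.5 between members and low-cycle cells. Cd48, at a log2 ratio of 0.50, passed it at 0.74 when cells with RNA of other types, described below, were left out. Cd34 was nonetheless seen in 72.9% of members although the gate took CD34- cells, and Slamf1, which encodes CD150, was at 2.46 CPM in members although it took CD150+ cells. RNA and surface protein were not compared.

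RNA of other cell types was rarer in members than in low-cycle cells. Dendritic cell markers were lower for 11 of 13 measured, and their 16 genes summed to 2591 against 4501 CPM, with Cd209a at 0 in members. In all other kept cells that sum was 2623 CPM. T, NK or innate lymphoid markers were lower for 10 of 12, and their 18 genes summed to 256 against 399 CPM, with Cd3e and Gzma at 0. Over all measured genes 7.34% were lower, and a marker could enter these counts through its level in the low-cycle cells. The 8 B and plasma cell markers summed to 34.6 against 513 CPM, with Cd79a and Pax5 at 0. Few cells carried that sum, since 11 low-cycle cells and 1 member had 3 or more UMIs per 10000 of Igkc, Iglc3 and Jchain. Cells with 3 or more UMIs per 10000 of Plbd1 and Naaa, of Skap1 and Ms4a4b, or of Igkc, Iglc3 and Jchain made up 26 of 514 members (5.06%) and 312 of 2923 low-cycle cells (10.7%). Without such cells the count of replication genes higher was 107 and that of all genes lower was 718. The log2 ratio of Cd74, the invariant chain of MHC class II, went from -0.87 to -0.32, that of Irf8, a dendritic cell factor, from -0.85 to -0.31, that of Skap1 from -2.46 to 0.94 and that of Igkc from -7.12 to -0.86. Klf2 went from -1.18 to -1.16 and Ccnd3 from -0.83 to -0.87. Hlf went from -0.56 to -0.64, which passes the limit of 1/1.5.

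The LT-HSC library holds none of the members, and replication genes were higher there too in the cells passing the rule. The same rule chose these cells, and the low-cycle cells lay below its thresholds. The comparison is thus not an independent check of the replication genes, and the part set by the choice was not tested. In the LT-HSC library 765 of 10385 genes were higher in the 159 cells passing the rule than in low-cycle cells (7.37%) and 1647 were lower (15.9%). Of 120 replication genes, 105 were higher and none lower, with a median log2 ratio of 1.34 beside -0.12 over all genes. Pclaf was at 89.9 CPM against 8.68 CPM, a ratio of 10.4, and E2f1 at 111 CPM against 26.5 CPM, a ratio of 4.17. Histones summed to 462 CPM in these cells and 525 CPM in the low-cycle cells. Against all other kept LT-HSC cells 924 of 10169 genes were higher (9.09%) and 651 lower (6.4%), and 64 of 122 replication genes were higher.

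Over the 10000 genes measured in both libraries against low-cycle cells, 639 were higher in ST-HSC and 685 in LT-HSC. The 476 genes higher in both made up 74.5% of the ST-HSC list and 69.5% of the LT-HSC list. Of the 10000, 586 were lower in ST-HSC and 1548 in LT-HSC. The 428 genes lower in both made up 73.0 and 27.6% of these. The same rule chose the cells in both libraries, so part of the overlap was set by the choice. Hlf had ratios of 0.676 in ST-HSC, just short of the limit, and 0.402 in LT-HSC, and Mecom had 0.929 and 0.640. Flt3 was seen at 5000 UMIs in 5.8% of the LT-HSC cells passing the rule and in 59.7% of the ST-HSC members. The LT-HSC gate excludes Flk2, the protein of Flt3. Median depth of the cells passing the rule was 14162 UMIs in ST-HSC against 20606 in the LT-HSC library. With 1 library per gate the library and the gate cannot be told apart.

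**Figure D5:**
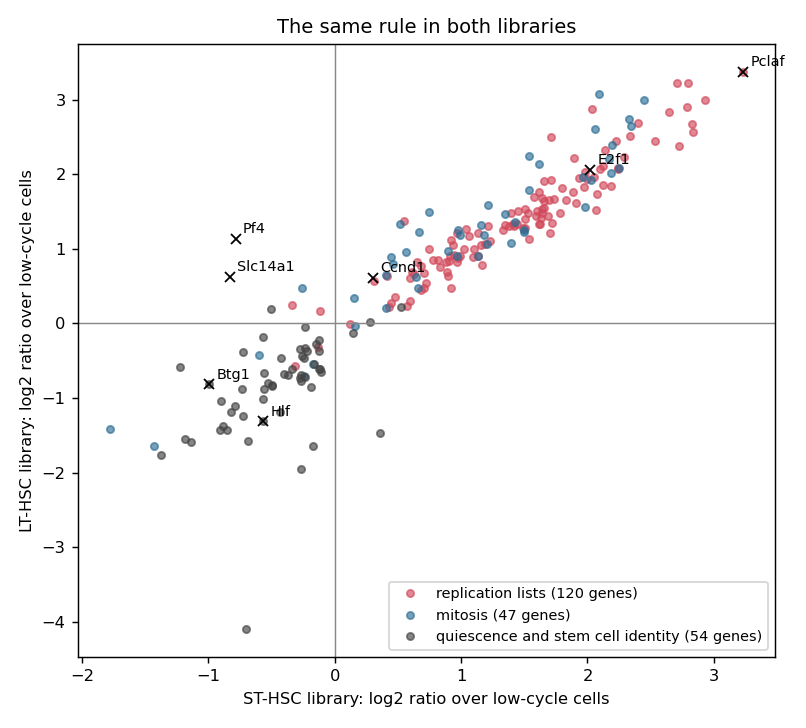
Each point is a gene, by its log2 ratio of cells passing the rule over low-cycle cells in the ST-HSC (x) and the LT-HSC library (y), for 120 replication, 47 mitosis and 54 quiescence or stem cell genes measured in both; crosses mark 7 named genes. Replication genes lie at the upper right in both libraries, with Pclaf at 3.23 and 3.37, while Pf4 is negative in ST-HSC and positive in LT-HSC.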

How the data were processed

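Gene by cell UMI counts of both libraries were used as deposited by the authors, 7586 barcodes for ST-HSC and 2938 for LT-HSC over 32285 genes, with no barcode under 500 UMIs. Libraries were made with the 10x 3' v2 kit, per the labels' protocols. Counting used Cell Ranger, 7.2 on mm10 per the submitters' processing notes and 7.1.0 per the file headers. Its annotation is not given in the sources used here. The kept ST-HSC cells held 111783180 UMIs, of which 7723849 were in members, and the kept LT-HSC cells held 64673871.

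Counts were summed over the cells of each set with python 3.11.15, scanpy 1.11.5 and scipy 1.17.1 and divided by the set's total to give CPM. A gene was measured where its level, averaged over both compared sets, reached 5 CPM. Lists were described by counts and medians. The interval and call step was tested on simulated data. Members and lists were chosen with earlier results of these data known. Named genes were those of the rule and label, measured replication, cycle, histone and mitosis genes, up to 4 genes of each other list, a fixed set of regulators and the 15 highest and lowest ratios over all other kept cells among genes at 20 CPM or more. Repeating that ranking for the other comparisons and reading the list genes from the comparison at hand were decided after the data were seen.

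Scrublet (in scanpy) marked 0 of 6648 ST-HSC cells and was not relied on, so no doublet was removed. The alternatives were TMM factors (edgeR 4.0.16), median of ratios, means of cells, no filter on low genes, thinning to 5000 UMIs, other limits of the rule and leaving out the cells that scored highest in Scrublet. Leaving out cells with RNA of other types, or barcodes found in both libraries, was added after seeing the data. RefSeq promoter windows of GRCm38.p6 matched 101 of 124 replication genes by symbol.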

Additional observations from a re-analysis of the deposited data

Results flagged for a closer look

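For 6 genes the ratio of cells passing the rule over low-cycle cells passed 1.5 in opposite directions in the libraries. The difference between libraries was not tested, since each gate has 1 library. Pf4, a platelet granule gene, had a ratio of 0.581 in ST-HSC (18.9 against 32.5 CPM) and 2.20 in LT-HSC (1605 against 731 CPM). With the mitotic limit at 2 its log2 ratio in ST-HSC went from -0.78 to -0.39, which no longer passes. Slc14a1, a urea transporter, had 0.564 and 1.54. Ifi30, a lysosomal reductase, had 0.640 and 2.56, and Hspa1a, a heat shock chaperone, 0.658 and 2.0. Evl, an actin regulator, had 0.656 and 1.57, the latter on 30 UMIs in the LT-HSC cells passing the rule. C1qtnf6 ran the other way, at 1.55 and 0.636, on 71 and 21 UMIs.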

How the results depend on the processing

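The share of members moved with the limits, to 11.3% with the Hells, Uhrf1 and Ung threshold at 2, 2.95% at 5, 4.33% with the mitotic limit at 2 and 6.27% when the rule was read at 5000 UMIs. Without the filter on low genes the higher and lower counts were 2370 and 7170 against all other kept cells, 2493 and 6352 against low-cycle cells, 2816 and 4628 against mitotic-gene-high cells and 3170 and 7151 in LT-HSC. At 5000 UMIs they were 498 and 712 against mitotic-gene-high cells, and 1396 were lower in LT-HSC. With the threshold at 5, 443 genes were higher than in all other kept cells, 415 higher than in mitotic-gene-high cells and 1188 lower in LT-HSC. Replication genes higher than in all other kept cells numbered 54 by means of cells, 51 at 5000 UMIs, 13 with the mitotic limit at 2 and 108 when the reference was low-cycle cells, where 677 genes were higher and 777 lower. With that mitotic limit 35 were higher in LT-HSC. The change of reference to low-cycle cells, which leaves out mitotic-gene-high cells and also cells above the Dntt, granule gene and Car1 limits, reversed 19 named log2 ratios, to 0.92 for Mki67, 1.82 for Top2a, 0.16 for Dntt, 0.60 for Mpo, 0.55 for Ctsg, 0.064 for Car1, 0.45 for Dbf4, 2.78 for Rrm2, 2.40 for Asf1b, 3.23 for Pclaf, 2.04 for Fancd2, 0.78 for Parpbp, 1.76 for Ccne1, 1.0 for Ccna2, 0.48 for Cdkn2c, 0.69 for Hist1h1b, 0.18 for Hist1h2ap, 2.03 for Cdk1 and -0.17 for Fgd5. Without cells holding RNA of other types Skap1 reversed to 0.78 over all other kept cells and 0.94 over low-cycle cells, and with the mitotic limit at 2 Parpbp reversed to -0.12 over low-cycle cells. Mki67, Top2a, Dntt, Mpo, Ctsg and Car1 are genes that the rule limits, and low-cycle cells lay under the same limits. Their reversals were thus partly set by the choice of reference. For the other moves the cause was not tested. In LT-HSC against all other kept cells, the share of higher among called genes went from 58.7% to 47.2% with TMM factors and 48.1% with the median of ratios. Leaving out the cells that scored highest in Scrublet, or barcodes found in both libraries, reversed no named ratio. No paired analysis was possible because each gate has 1 library. Intervals cover counting error only, and with a median of 7 UMIs of the rule's 3 genes per member, single cells near the threshold are uncertain.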
